A study of Mus musculus with 48 samples.

Results

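A set of 2639 sites of open chromatin, 2.31% of the 114043 merged peaks of the series, held a summit called on a mixed pool of libraries and none called on the CMV pool or the CGRP pool. The assay was ATAC-seq, which cuts and tags open DNA with a transposase, on tumors of genetically engineered mice that develop small cell lung cancer. Members were selected on summit calls, compared by position on build mm9. Each of these peaks, 501 bp long, contained at least 1 summit of the mixed-pool list and no summit of the other 2 lists. Every one was also named after a mixed-pool summit. They made up 6.55% of the 40313 merged peaks that carry such a name. A single mixed-pool summit lay in 2530 of them, and 2 or more lay in 109.

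Accessible sites mark promoters and distal elements where transcription factors displace nucleosomes, and distal sites differ most between cell states. A summit is the position of highest signal within a called peak. Peak callers score the reads of a pool against local background, and a broad open region can receive several summits. Small cell lung cancer is a neuroendocrine tumor, and Nfib, the transcription factor gene whose copy number separates the CMV groups here, has been linked to its spread.

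All 48 libraries came from mice with Trp53-/-, Rb1-/- and p130-/- tumors that carry the R26mG reporter. Cre came from adenovirus with the CMV promoter, active in many cell types (Ad-CMV-Cre), or with the CGRP promoter, active in neuroendocrine cells (Ad-CGRP-Cre). The mixed pool joined 15 libraries of preparation batch 3. Of these, 6 were CMV libraries with Nfib amplification (3 liver metastases, 1 lymph node metastasis and 2 lung tumors), 5 were CMV lung tumors without it, and 4 were CGRP lung tumors. Titles of the 15 carry only 2 codes, 1 for each vector, and neither code occurs in the other pools. The labels do not say what a code marks, and some titles differ only in an ending A or B, so libraries may share an animal or a tumor. The CMV pool joined 19 libraries of batch 1, 15 of them marked as low in enrichment and in neither comparison, and the CGRP pool 14 libraries of batch 2. Pool, preparation batch and title code therefore cannot be told apart. The mixed pool was in sequencing batch 3, the CGRP pool in batch 2, and the CMV pool was split between batches 1 and 3. Among libraries of the comparisons, sequencing batch followed the pools, so it cannot be told apart from them either. Ages are not given in the labels.

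Changes come from 2 comparisons that the authors deposited. The CMV comparison set 8 libraries with Nfib amplification against 7 lung tumors without it, and the labels also describe the former as hyperaccessible and the latter as hypoaccessible. For 1 of the 7, a CMV-pool library, the labels give the group but do not list the comparison's table, so its place in the fit is unsure. The mixed pool supplied 6 of the 8 and 5 of the 7. A site is called raised or lowered where the authors' adjusted p was under 0.05. The CGRP comparison set 7 liver metastases against 11 lung tumors, 1 of them labelled with Nfib amplification; of the lung tumors, the mixed pool supplied 4, and it supplied no metastasis. The choice of peaks thus used libraries of both comparisons, and what follows on mean count and change describes the peaks and tests nothing. Values per library, and so sequencing depth, were not in the tables used here. In bulk tissue, a site open in fewer cells and a site less open per cell cannot be told apart. No annotation of build mm9 was at hand, so sites are given by coordinates, no gene was assigned and the tissue labels were not checked against marker genes.

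Mixed-pool-only peaks were weak. Their mean normalised count, averaged by the authors over libraries, had a median of 8.46, against 21.2 over all merged peaks. Counts below that overall median were found in 2386 of them (90.4%). The whole range ran from 0.034 to 160. Scores of the mixed-pool summits, read as −log10 of the q-value, were low too, with a median of 6.17 against 35.6 for all merged peaks with a mixed-pool summit. A score under 10 was found in 1855 (70.3%).

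The share of mixed-pool-only peaks fell with every step in mean count. With merged peaks in 10 equal groups by mean count, 7.51% of decile 1 (mean count up to 6.26) were called in the mixed pool only, and this decile held 856 of the 2639. In deciles 2 and 3 the shares were 5.71% and 3.87%. Decile 10 held 9 such peaks, 0.079% of its peaks. Peaks called only in the CMV pool (8396) had a lower median, 4.83, and those called only in the CGRP pool (2287) a median of 7.35. Peaks with a summit of all 3 pools had a median of 33.0.

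Most of these sites lay close to other open chromatin. The nearest merged peak was a median of 2592 bp away (quartiles 1036 and 6557), against 4125 bp (1440 and 9505) for all merged peaks. Outside the peak's own edges, the nearest CMV-pool summit was a median of 1730 bp away and the nearest CGRP-pool summit 2569 bp. A summit of either pool lay within 250 bp of the edge in 193 peaks and over 250 but within 500 bp in 496, together 26.1% of the set. At the other end, 212 peaks (8.03%) had neither within 10000 bp.

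Lettered names were more frequent near another pool's summit. MACS2-style names add a letter where 1 called region holds several summits. Such a letter was carried by 388 of the 689 peaks within 500 bp (56.3%), by 8.46% of the 1950 peaks beyond, and by 22.8% of all merged peaks. The nearer peaks had a median mean count of 10.8 and a median score of 5.08. Beyond 10000 bp the median mean count was 6.56 and the median score 11.4. Peaks far from other summits thus had fewer counts but higher-scoring mixed-pool summits.

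**Figure D1:**
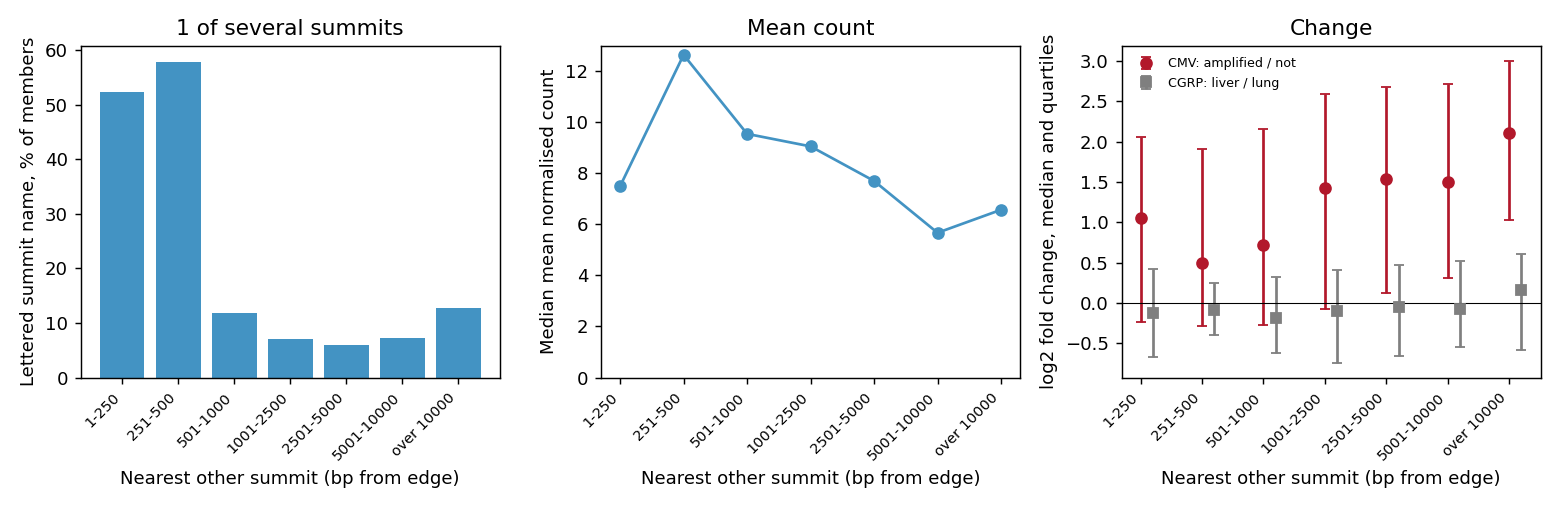
Mixed-pool-only peaks by distance (bp) from the peak's edge to the nearest CMV-pool or CGRP-pool summit. Left, percent with a lettered summit name; middle, median mean normalised count; right, log2 fold change as median (points) and quartiles (bars) in the CMV and CGRP comparisons. Lettered names drop from 57.9% of peaks at over 250 and up to 500 bp to 11.8% at over 500 and up to 1000 bp, and the CMV median is highest, 2.10, beyond 10000 bp.

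The 5 peaks with the highest mean count all had lettered names, and 4 of them lay within 500 bp of another pool's summit. The first, chr3:37319039-37319539, had a mean count of 160 and a score of 181, with CMV- and CGRP-pool summits 380 and 404 bp beyond its edges. For the CMV comparison, the authors' deposited table gave it a log2 fold change of -0.02 with an SE of 0.16 and an adjusted p of 0.934. The second, chr1:3661048-3661548, had a mean count of 154 and a CMV-pool summit 11 bp outside. The others were chr12:36768365-36768865 (mean count 146), chr4:15193392-15193892 (140, nearest other summit at 546 bp) and chr7:74517377-74517877 (118). Among these 5, the chromosome 12 peak alone passed the threshold for the CMV groups, where the authors' deposited table lists 0.54 with an SE of 0.21 and an adjusted p of 0.0288.

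Ranked by score, the leading peaks were of both kinds. The peak at chr17:13184553-13185053 had the highest score, 183, with a mean count of 108 and other summits 288 and 312 bp away. The chromosome 3 peak above came next, followed by chr2:63022623-63023123 with a score of 133. The latter was raised by 1.21 (SE 0.26, adjusted p = 3.559e-05) between the CMV groups, per the authors' deposited table. The fourth by score (128), chr6:43826645-43827145, was isolated: its nearest CMV-pool summit lay 13126 bp away and its nearest CGRP-pool summit 37381 bp. It was raised by 3.97 (SE 1.05, adjusted p = 0.0008946) between the same groups, per the authors' deposited table. The fifth, chr18:13106054-13106554 (score 116), was lowered, with -1.14 (SE 0.29, adjusted p = 0.0005082) per the authors' deposited table.

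At the edge of the rule, positions decided membership by a few bases. The member chr3:35302166-35302666 had a CGRP-pool summit 1 bp outside its edge and a mean count of 3.83, and the authors' deposited table gives 1.60 (SE 0.79) as its CMV log2 fold change. The peak chr1:80343801-80344301, with a CGRP-pool summit 1 bp inside its edge and a mean count of 34.6, was no member, and the authors' deposited table gives it -0.63 (SE 0.48). The 79 members with a CMV- or CGRP-pool summit 1 to 50 bp outside had a median mean count of 7.96. The 191 other mixed-named peaks with the innermost summit of either pool 0 to 49 bp inside had 9.90. Median CMV log2 fold changes of the 79 and the 191 were 1.08 and 1.52.

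Mixed-pool-only peaks were found on all 20 chromosomes with at least 100 merged peaks, at unequal shares. Chromosome 4, which carries Nfib, had the highest, 109 of 2911 merged peaks (3.74%), followed by chromosome 8 with 191 of 6000 (3.18%). Chromosomes 13, 17 and 12 had 2.78%, 2.71% and 2.71%. Chromosome 4 held 15570 mixed-pool summits beside its 2911 merged peaks, against 11763 beside 6000 on chromosome 8. Chromosomes 19 (4264 summits beside 315 merged peaks) and X (4696 beside 831) also had few merged peaks for their summits. Their shares of members were 2.22% and 1.68%. The cause of the chromosome 4 share was not tested. The lowest shares were on chromosomes 7 (1.41%, 69 peaks), 11 (1.59%, 103), X (1.68%, 14), 2 (1.86%, 177) and 9 (1.87%, 115). By number, chromosome 1 had most, with 201. A further 9 contigs with 99 merged peaks in all held 4 members, of which 3 were among the 5 merged peaks of Y_random.

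**Figure D2:**
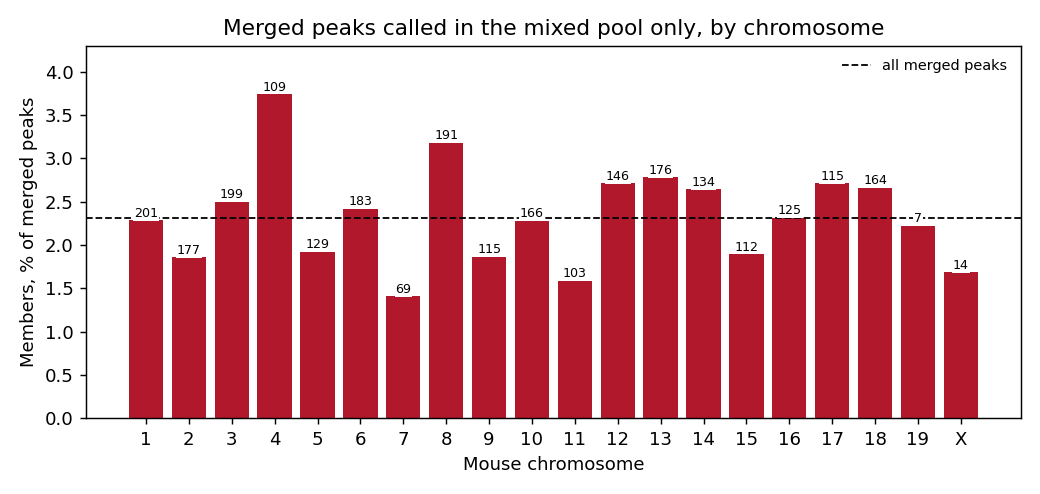
Mixed-pool-only peaks as a percent of the merged peaks of each mouse chromosome (bars; the number of such peaks stands above each bar), with the share over all merged peaks, 2.31%, as a dashed line. Chromosome 4 is highest at 3.74% and chromosome 7 lowest at 1.41%.

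The set was scattered. Of 1973 megabases with a merged peak, 1307 held at least 1 mixed-pool-only peak, and 596 of these held exactly 1. Only 67 megabases held 5 or more, with 392 peaks (14.9% of the set). In the order of merged peaks along the chromosomes, 2457 stood alone between peaks of other kinds, and 182 (6.90%) were next to another member. The median distance to the nearest member was 198857 bp.

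A few places stood out from this scatter. The longest run was 7 adjacent mixed-pool-only peaks at chr6:43809262-44527022, a span of 718 kb with no merged peak of another kind between them. Its mean counts had a median of 8.53, and 6 of the 7 were raised in the CMV comparison, where 34.3% of all merged peaks were raised and 12.2% lowered. Per the authors' deposited table, the 7 log2 fold changes ran from 1.11 to 3.97 (median SE 1.03), all above 0. Values above 0 were also found in 72.3% of all mixed-pool-only peaks and 66.2% of all merged peaks. In the CGRP comparison they ran from -0.10 to 1.00, and none of the 6 with an adjusted p passed the threshold.

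The next longest runs had 4 peaks each. In the run at chr3:64037527-64170047, 3 of 4 were raised between the CMV groups; the authors' deposited table lists them at 3.32, 3.42 and 3.62, and the fourth at 1.16 (SE 0.85). In the run at chr13:86663764-88900502, 2 of 4 were raised, which the authors' deposited table lists at 3.68 and 4.09. Chromosome 17 held the other pair of runs, chr17:59501385-59523209 and chr17:60181423-60452734, with 2 and 1 of 4 raised. The share raised over all merged peaks tested was 34.3%. All values of these 4 runs lay above 0 for the CMV comparison, as did 66.2% of all merged peaks. They lay between 1.10 and 4.09 per the authors' deposited table, with median SEs from 1.00 to 1.05.

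These chromosome 17 runs fell in the 2 megabases where mixed-pool-only peaks took the highest share among the 1865 megabases with at least 10 merged peaks, a ranking chosen after the values were seen. From 59 to 60 Mb they were 9 of 21 merged peaks (42.9%), and from 60 to 61 Mb 7 of 15 (46.7%). The 9 had CMV log2 fold changes from 1.26 to 3.34, and 3 were raised. The other 12 merged peaks of that megabase had a median of 0.72, with 3 raised and 2 lowered. Summits of these sites were lettered in 7 of 9 cases.

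By number, the fullest megabase was chromosome 4 from 97 to 98 Mb, with 14 mixed-pool-only peaks among 141 merged peaks (9.93%). Their CMV log2 fold changes had a median of 1.90 and ran from -1.67 to 4.54, and 6 were raised. The 127 other merged peaks there had a median of 1.80, with 71 raised and none lowered. In the CGRP comparison the median of the 14 was -1.13 (median SE 0.95), and none passed the threshold. Next came 118 to 119 Mb of chromosome 12, with 10 of 122, of which 1 was raised, against 41 raised and 6 lowered of the 112 others. The chromosome 17 megabase at 59 to 60 Mb and 50 to 51 Mb of chromosome 18 had 9 each. In the latter 3 were raised, against 44 raised and 3 lowered of the 93 others. At 89 to 90 Mb of chromosome 17, 7 of 8 were raised, against 32 raised and 1 lowered of the 55 others. The 8 peaks of the last window had a median CMV log2 fold change of 3.36, against 2.37 for the others.

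In the CMV comparison, 920 of the 2634 mixed-pool-only peaks with an adjusted p (34.9%) were more accessible with Nfib amplification, at the authors' adjusted p under 0.05. Over all merged peaks tested the share was 34.3%, so the count of raised sites was near the background. Lowered sites numbered 206 (7.82%), against 12.2% of all merged peaks. Among peaks of like mean count, with deciles grouped, the lowered share of members was above that of all merged peaks in deciles 1, 2 and 3, and 4 and 5. It was below in deciles 6 to 10, as given below. The median log2 fold change was 1.21 (quartiles -0.10 and 2.44, median SE 0.85), against 0.60 over all merged peaks. In a further test, not the authors', each log2 fold change was set against that overall median of 0.60. It used the deposited SE, a normal distribution and Benjamini-Hochberg adjustment at 0.05. By it, 560 peaks (21.3%) were called higher and 380 (14.4%) lower, against 19.9% and 25.5% of all merged peaks. At the authors' adjusted p under 0.01, 584 (22.2%) were raised and 132 (5.01%) lowered, against 24.4% and 8.18% of all merged peaks. In a second deposited test, which asks for a log2 fold change beyond 0.5 in size, 507 were raised and 99 lowered, against 19.0% and 4.64%. At a mean count of at least 20, 64 of 283 (22.6%) were raised and 40 (14.1%) lowered, against 34.3% and 17.5%, and the members' median log2 fold change was 0.0098. A p was missing for 5 of the 2639.

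The sites that passed the threshold differed by several fold. Among raised mixed-pool-only peaks the median log2 fold change was 2.87, a 7.32-fold difference, and the median SE 0.93. All raised merged peaks had a median of 2.44 with an SE of 0.74. Lowered ones had a median of -2.28 (SE 0.69), against -1.54 (SE 0.46). Median mean counts of the raised and lowered members were 9.74 and 11.1. The 1508 peaks with no call had a median mean count of 6.94.

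Set against peaks of like mean count, the picture differed by level. In decile 1, 16.3% of mixed-pool-only peaks were raised against 20.3% of all merged peaks, and 5.74% were lowered against 2.03%. Across deciles 2 and 3, 542 of 1090 (49.7%) were raised against 35.5%, with a median log2 fold change of 2.06 against 1.09. In deciles 6 to 10, 56 of 253 (22.1%) were raised against 34.1%, and 14.2% lowered against 17.7%. The median log2 fold change there was -0.02 against 0.25. Of those 253, 142 (56.1%) had lettered names. The mean count is averaged over libraries of the comparison, so level and change are tied.

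**Figure D3:**
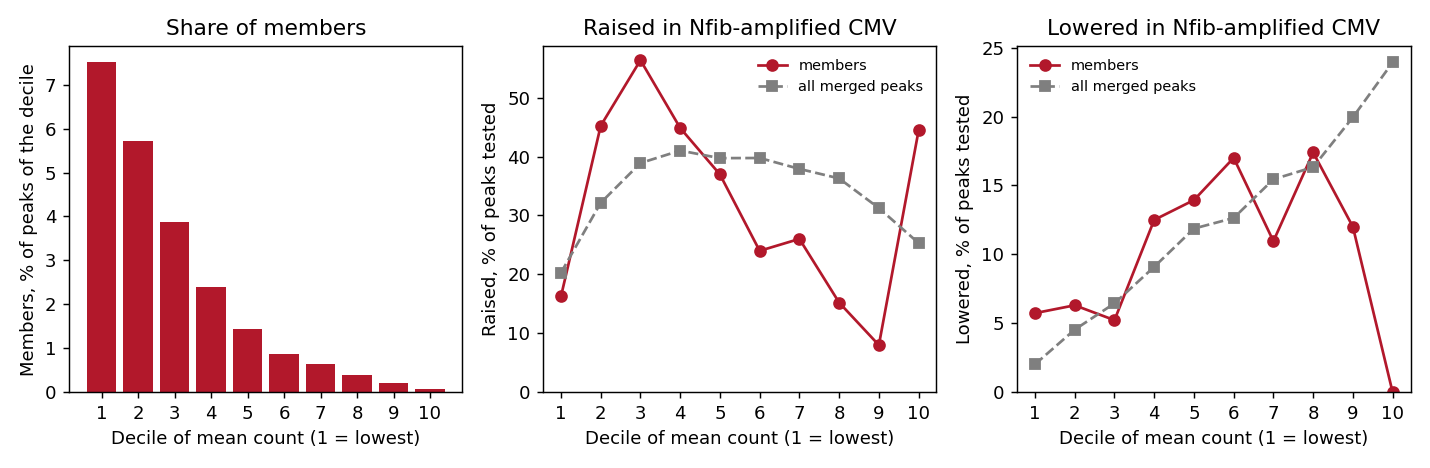
Mixed-pool-only peaks (circles) and all merged peaks (squares) by decile of mean normalised count, from lowest to highest. Left, members as percent of the peaks of each decile; middle and right, percent of tested peaks raised or lowered in Nfib-amplified CMV libraries. The raised share of members is highest, 56.4%, in decile 3, against 38.9% of all merged peaks there; decile 10 rests on 9 members.

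The raised share also went with the strength of the mixed-pool summit. Below the lower quartile of the score, 146 of 660 tested (22.1%) were raised, and above the upper quartile 375 of 644 (58.2%). The median log2 fold change was 0.89 in the former and 2.35 in the latter. Lowered shares were 3.94% and 9.94%. Over all merged peaks tested, 34.3% were raised and 12.2% lowered. Median mean counts of these quartile groups were 5.24 and 11.1, so score and mean count rose together. By distance, 30.5% of peaks within 500 bp of another pool's summit were raised, and 44.5% of those beyond 10000 bp. The respective median log2 fold changes were 0.59 and 2.10. Scores come from libraries of the comparison, 6 amplified and 5 not, so this too is a description.

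Chromosomes differed in the balance of gains and losses, and so did their merged peaks as a whole. On chromosome 8, 98 of 191 mixed-pool-only peaks were raised (51.3%) and 12 lowered (6.28%), against 37.8% and 11.3% of its merged peaks. Chromosome 5 had 29 raised and 23 lowered of 128 (22.7% and 18.0%), near the 24.8% and 19.2% of its merged peaks. On chromosome 11, 23 of 103 were raised and 14 lowered (22.3% and 13.6%), against 19.5% and 20.4% of its merged peaks. Chromosome 4 had 31 of 109 raised (28.4%) and 5 lowered, against 31.9% and 12.2% of its merged peaks. Chromosome 12 had 52 raised and 3 lowered of 146 (35.6% and 2.05%), against 39.5% and 8.70%. No test was made of these differences.

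The largest gains among members of at least median mean count lay on 5 chromosomes. The first was chr1:183453871-183454371, with a mean count of 10.7, to which the authors' deposited table assigns a log2 fold change of 5.69 with an SE of 0.93 (adjusted p = 5.949e-08). Close behind, per the authors' deposited table, were chr18:26803427-26803927 with 5.58 (SE 1.01) and chr19:3765471-3765971 with 5.57 (SE 0.92). Next was chr5:24218961-24219461, whose nearest other summit lay 13615 bp away, with 5.52 (SE 0.94) per the authors' deposited table. The fifth, chr11:84378651-84379151, reached 5.46 (SE 0.80, adjusted p = 1.389e-09), per the authors' deposited table. For the CGRP groups, values of these 5 sites in the authors' deposited table lay between -1.50 and 0.66, with no call.

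Under the same limit on mean count, the loss with the lowest value was chr8:32631404-32631904, which had a mean count of 9.67 and, per the authors' deposited table, -4.72 (SE 0.79, adjusted p = 1.149e-07). Its nearest CMV-pool summit lay 8461 bp away and its nearest CGRP-pool summit 65178 bp. Per the authors' deposited table, chr2:35124550-35125050 was lowered by -4.66 (SE 0.67) and chr1:196478104-196478604 by -4.28 (SE 0.74). The last of the 5, per the authors' deposited table, were chr18:75181812-75182312 with -4.22 (SE 0.66) and chr3:105502323-105502823 with -4.06 (SE 0.72). The chromosome 3 site was a member by a narrow margin, with a CGRP-pool summit 22 bp outside it. All 7 libraries without amplification were lung tumors and most with it were metastases, so these deposited values alone do not separate amplification from tissue.

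Peaks called in other sets of pools showed other balances in the same comparison. CMV-only peaks were raised in 35.5% of cases, against 34.9% of mixed-pool-only peaks, and lowered in 0.477%, against 7.82%. CGRP-only peaks had 6.21% raised and 13.1% lowered. With summits in both the CMV and the mixed pool, 79.3% were raised, and with both CGRP and mixed summits 36.7% were lowered. Of 73848 tested peaks with a summit of all 3 pools, 20676 were raised and 10349 lowered. Pools share libraries with the comparison, so these shares carry no test.

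**Figure D4:**
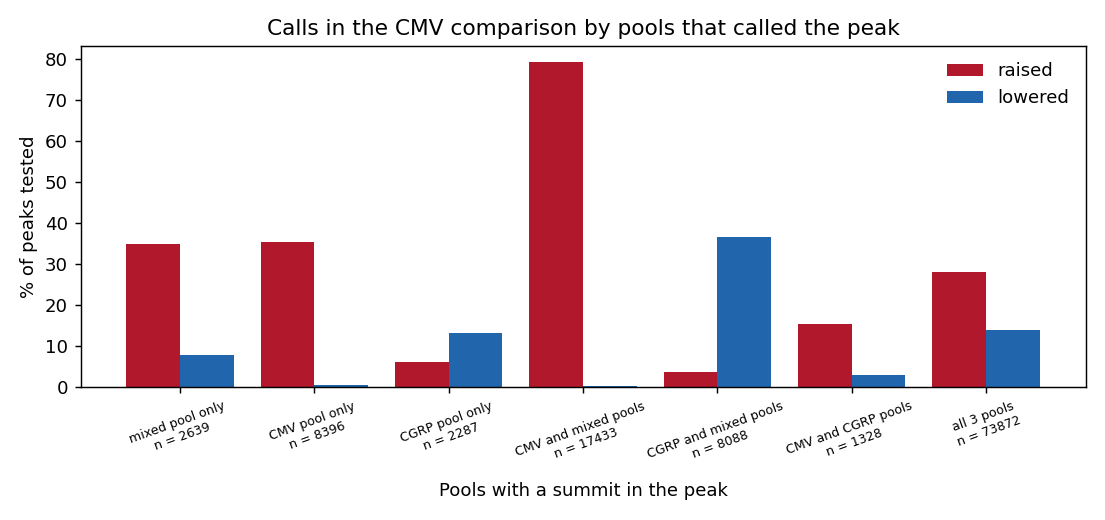
Percent of tested merged peaks raised and lowered in the CMV comparison (the authors' adjusted p under 0.05), by which pools have a summit in the peak; the number of peaks stands under each pair of bars. Mixed-pool-only peaks have 34.9% raised and 7.82% lowered; CMV-only peaks 35.5% and 0.477%.

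In the CGRP comparison, few sites passed the threshold. Lower accessibility in liver metastases was called at 11 of the 1943 mixed-pool-only peaks with an adjusted p (0.566%), against 0.779% of all merged peaks. Higher accessibility was called at 0, against 0.0752%. Without adjustment, at p under 0.05 in the deposited test, whose columns carry the names DESeq2 gives, 39 of 2634 were higher and 166 lower, against 3.37% and 6.25% of all merged peaks. The median log2 fold change was -0.09 (median SE 0.84), against 0.01 over all merged peaks. At an adjusted p under 0.01, 1 was lowered and 0 raised, against 0.355% and 0.0152%. In the second deposited test 0 passed in either direction, where 0.058% of all merged peaks were lowered and 0 raised. With a mean count of at least 20, 3 of 283 were lowered and 0 raised, against 1.03% and 0.0941%. An adjusted p was missing for 696, so these could not be called. All mixed-pool libraries of this comparison stood on the lung tumor side, and their part in the negative median was not tested.

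The 11 lowered sites lay on 11 chromosomes. Per the authors' deposited table, their log2 fold changes ran from -3.25 to -1.21, with SEs from 0.32 to 0.85 and adjusted p from 0.008966 to 0.04661. Of these, 8 were also lowered with Nfib amplification between the CMV groups, and none was raised there. Over all merged peaks, 819 were lowered in the CGRP comparison, and 383 of them were also lowered and 83 raised between the CMV groups. The comparisons share no libraries, though libraries of the mixed pool entered both. The smallest adjusted p belonged to chr10:37828862-37829362, for which the authors' deposited table holds -2.41 (SE 0.58) between the CGRP groups and -3.55 (SE 0.71) between the CMV groups. The site chr16:45837864-45838364 was lowered in both as well, by -2.26 (SE 0.57) and -2.94 (SE 0.59) per the authors' deposited table.

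Other losses among the 11 stood beside different CMV values. The lowest CGRP value, -3.25 (SE 0.85) at chr4:96634411-96634911, stood beside a CMV value of 0.17 (SE 0.82, adjusted p = 0.877), per the authors' deposited table. By contrast, chr9:37335395-37335895 was lowered in both, by -2.76 (SE 0.73) and -2.12 (SE 0.73) per the authors' deposited table. So was chr6:8909458-8909958, by -2.54 (SE 0.72) and -2.85 (SE 0.78) per the authors' deposited table. The remaining 2 sites without a CMV call were named after their values were seen. One, chr2:48533270-48533770, had -1.66 (SE 0.46) beside 1.06 (SE 0.49, adjusted p = 0.0626), and the other, chrX:154167870-154168370, had -2.62 (SE 0.73) beside -1.06 (SE 0.72, adjusted p = 0.221), per the authors' deposited table.

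Members lowered in the CMV comparison had a median CGRP log2 fold change of -0.43 (median SE 0.60), with 8 of 172 lowered there (4.65%), against 383 of 13797 (2.78%) over all merged peaks lowered in the CMV comparison. Members raised in the CMV comparison had a median of 0.11 (median SE 0.94), with 0 of 815 called in either direction. At an unadjusted p under 0.05, 27 of 920 were higher and 17 lower. All merged peaks raised in the CMV comparison had 20 raised and 83 lowered of 37398 in the CGRP comparison, and 1410 higher and 1407 lower of 39032 without adjustment. Over all merged peaks lowered or raised in the CMV comparison, the CGRP medians were -0.19 and 0.08.

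**Figure D5:**
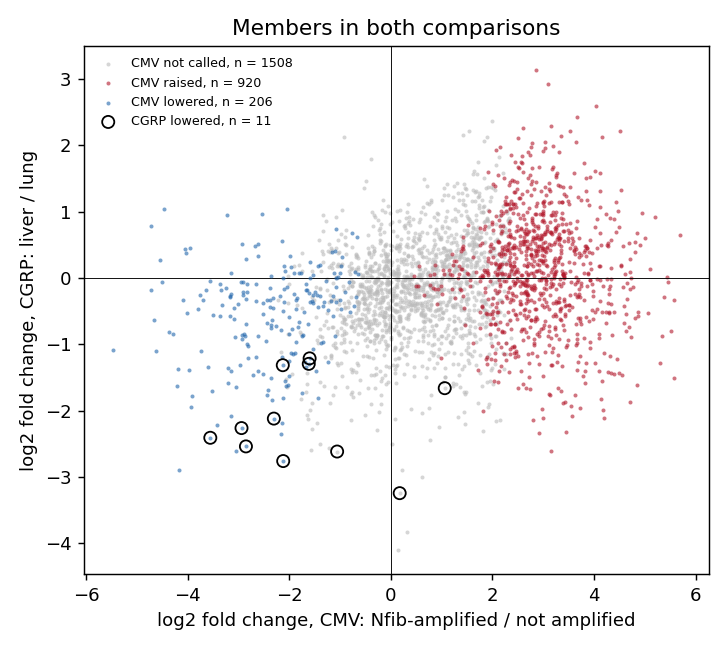
Each point is 1 mixed-pool-only peak, with its log2 fold change in the CMV comparison (x axis) and in the CGRP comparison (y axis). Colors give the CMV call (920 raised, 206 lowered, 1508 not called) and open circles the 11 peaks lowered in the CGRP comparison. Of the 11, 8 are also lowered in the CMV comparison, against 383 of 819 over all merged peaks.

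Only a small part of the summits particular in position to the mixed pool became merged peaks. Of 206478 mixed-pool summits, 22301 (10.8%) had no CMV- or CGRP-pool summit within 250 bp, and 2798 of these (12.5%) lay in a merged peak. Of the 184177 others, 56.1% did. Among the lone summits, the share in a merged peak was 8.91% below the lower quartile of the score and 20.9% above the upper quartile.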

How the data were processed

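ATAC-seq libraries were merged into pools before summits were called, per the labels, which name a summit list for each library. The submitters' processing notes name Bowtie2, MACS2, DESeq2 and build mm9, with no version and no role. Trimming, removal of duplicates, any shift of reads for the transposase, and the filter that led from summits to merged peaks were not given in the sources used here. Summit scores are the authors' values, read as −log10 of a q-value from a smallest value of 1.30. The mean normalised count is a signal averaged by the authors. The log2 fold changes, SEs, p-values, adjusted p-values and the test statistic, treated as a score, were deposited by the authors, going by the column headers; with 0 columns of values per library, no count model was fitted and depth is unknown.

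Summits and peaks were joined by position and the tables by peak name. A peak was called at an adjusted p under 0.05. Named sites are the 5 members with the largest change in each direction among called members no weaker in mean count than the median member, the 5 highest by mean count and by score, the longest runs, the fullest windows of 1 Mb, and the extreme chromosomes. Members and rules were chosen with earlier results of these data known. Nothing says that libraries came from separate animals, so the p-values may measure only technical spread. The join and adjustment were tested on simulated data. Sequence content was not analysed here. Software was pandas 2.3.3, numpy 2.4.6 and scipy 1.17.1 under Python 3.11.15, with figures from matplotlib 3.10.9. Alternatives covered the member rule, thresholds, adjustment, centring, mean count and window size. Of these, only the centred test and a Benjamini-Hochberg adjustment over all deposited p-values used adjusted p-values computed here.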

Additional observations from a re-analysis of the deposited data

Results flagged for a closer look

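Summits of the mixed pool with no CMV- or CGRP-pool summit within 250 bp lay outside every merged peak in 19503 cases, and so entered neither comparison. These are signals in data that the comparisons do not use. Chromosome 4 held 2202 of them (11.3%), though it held 7.54% of all mixed-pool summits. Of all lone summits, in merged peaks or not, it held 10.4%. On this chromosome 4.92% of lone summits lay in a merged peak, against 12.5% over the genome. The fullest megabase was chromosome 4 from 121 to 122 Mb, with 191, where 69.7% of 274 mixed-pool summits were of this kind and no merged peak was listed. From 104 to 105 Mb there were 163 of 326, and from 122 to 123 Mb 119 of 354, again with no merged peak.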

How the results depend on the processing

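Of 59 alternative values, 41 stayed within 1.5 times the value reported, or, for a median log2 fold change, within the median SE of a single peak. The other 18 moved further. That SE does not measure the spread of a median. By it, the CMV median counted as unmoved though centring took it from 1.21 to 0.61. Counts raised in the CGRP comparison were 0 under every setting and also counted as unmoved. Direction was not scored. The median log2 fold changes kept their sign in both comparisons. The number of mixed-pool-only peaks was 1533 without those that have another pool's summit within 1000 bp beyond their edges, and 1607 at a mixed-pool score of at least 5. Under the 1000 bp rule, 581 of 1529 (38.0%) were raised and 114 (7.46%) lowered in the CMV comparison, against 34.3% and 12.2% of all merged peaks. In the CGRP comparison 7 of 1055 (0.664%) were lowered, against 0.779%. By the same rule, the fullest megabase was chromosome 17 from 59 to 60 Mb with 8. With shares given above, raised and lowered CMV counts were 584 and 132 at an adjusted p under 0.01, and 507 and 99 in the second deposited test. They were 560 and 380 in the test centred on the median over all merged peaks, and 64 and 40 at a mean count of at least 20. At that minimum the median CMV log2 fold change was 0.0098. CGRP losses numbered 1 at an adjusted p under 0.01, 0 in the second test and 3 at a mean count of at least 20. Fewer peaks enter under each stricter rule by construction; the cause of the lower median was not tested. Leaving out lettered names, chosen after seeing the data, gave 730 raised (35.1%) and 161 lowered (7.74%) of 2081 in the CMV comparison. In the CGRP comparison it gave 10 losses of 1461 (0.684%). No paired analysis was possible because the tables carry no value per library, and for the same reason no library could be left out and no value within a preparation batch could be given. The median SE of a member's CMV log2 fold change was 0.85, against 0.59 over all merged peaks.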

Other observations

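Mixed-pool summits on the unplaced contig Y_random were mostly of the lone kind, with 45 of 80 (56.2%) lacking a CMV- or CGRP-pool summit within 250 bp, against 10.8% over the genome. Of these, 3 lay in merged peaks, and all 3 had no adjusted p in either comparison. The lone share was 14.9% on chromosome 4 and 14.1% on chromosome 8, and between 8.40% and 11.5% on every other numbered chromosome and X. Among megabases outside chromosome 4, chromosome 1 from 12 to 13 Mb held most lone summits outside merged peaks, 38 of 74 mixed-pool summits.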
